A study of Mus musculus with 7 samples.

Results

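The SOX transcription factors were measured in mouse nucleus pulposus, the soft centre of the spinal disc, in animals without and with the lactate exporter MCT4. The 10 family members Sox2, Sox4, Sox5, Sox6, Sox8, Sox9, Sox10, Sox11, Sox12 and Sox17 were taken by gene symbol from 19505 named genes, and each was read by 1 array feature. The knockouts were 3 mice with a deletion of MCT4 (gene Slc16a3) in all tissues (MCT4KO), aged 14 months, and the controls were 4 wild-type mice (WT), aged 13 months. Tissue from the lumbar and caudal discs of each animal was pooled into 1 sample and hybridised to 1 Affymetrix array, and no animal contributed more than 1 array. The protocol describes littermates from heterozygous matings on a background backcrossed to C57Bl/6N; the sample labels give the strain C57BL/6 for all 7 animals, and the design text gives C57Bl/6N for the knockouts alone. Age and genotype cannot be told apart. If the strains differ as the design text names them, strain and genotype cannot be told apart either. Because the deletion is global, effects that arise outside the disc cannot be told apart from effects within it.

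SOX proteins bind the minor groove of DNA through an HMG box, bend it sharply and act with partner factors on short motifs built around ACAAT. The family is divided by sequence into groups. SOX9, of group E, switches on cartilage matrix genes, and SOX5 and SOX6, of group D, lack a transactivation domain of their own and strengthen its action. SOX9 maintains disc cells in mouse, and SOX5 and SOX6 are needed there for the notochordal sheath and for survival of the notochord cells that give rise to the nucleus pulposus.

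The deposited values are read here as log2, though no source used here states the log base, and the folds printed rest on that reading. The background of each array was taken as the median of its 5222 negative control features, which ran from 5.91 to 6.08. Slc16a3 read 5.02, 4.98 and 4.47 in MCT4KO animals 1 to 3, against 13.55, 13.35, 13.61 and 13.40 in WT animals 1 to 4. Each knockout thus read under its array's background, and the loss was at least 179.9-fold (limma adjusted p = 6.7e-09; exact two-sided permutation p = 0.0286, the smallest that 35 splits of the animals allow). Of 10 nucleus pulposus markers measured, 8 were above background throughout: Krt8, Krt18, Krt19, Cd24a, Cdh2, Car3, Shh and Noto read above it in every animal. Foxa2 did so in every animal but WT 4, Foxa1 lay below it in both groups, and brachyury was not analysed here. Noto was close to background, between percentiles 62.2 and 75.5 of the negative controls. Some animals stood apart. The Y-linked genes Eif2s3y, Kdm5d and Uty read below background in MCT4KO 3 and WT 1 and above it in the other animals, and no source used here gives the animals' sex. The mean of 9 neutrophil and marrow markers was 5.18 to 5.91 in MCT4KO animals and 6.19 to 10.36 in WT animals, highest in WT 2 and WT 1.

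Of the 10 SOX genes, 6 read above the control median on all 7 arrays, namely Sox5, Sox6, Sox8, Sox9, Sox11 and Sox12, as did 50.4% of all genes. The other 4, Sox2, Sox4, Sox10 and Sox17, lay at or below the control median on every array of both groups, as did 39.1% of all genes, and no fold change is given for them. In bulk tissue a low reading cannot tell few expressing cells from little RNA per cell.

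No SOX gene passed the test for a change with loss of MCT4. In limma, 0 of 10 members passed an adjusted p of 0.05 over all 19505 genes, where 0.59% of all genes did. At an unadjusted p under 0.05 there were 2 of 10, Sox12 and Sox6, both lower in MCT4KO, against 12.7% of all genes in either direction, 6.9% lower and 5.76% higher. MCT4KO and WT animals overlapped for each of the 10 genes, beside 12.0% of all genes with groups that did not overlap. For 10 genes at that share, a count of 0 does not set the family apart. The median log2 change was -0.051 over the 10 members and -0.059 over the 6 above background, beside 0.017 over all genes and -0.054 over genes above background on all arrays. The intervals below show which sizes of change the 7 animals leave possible for each gene.

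**Figure D1:**
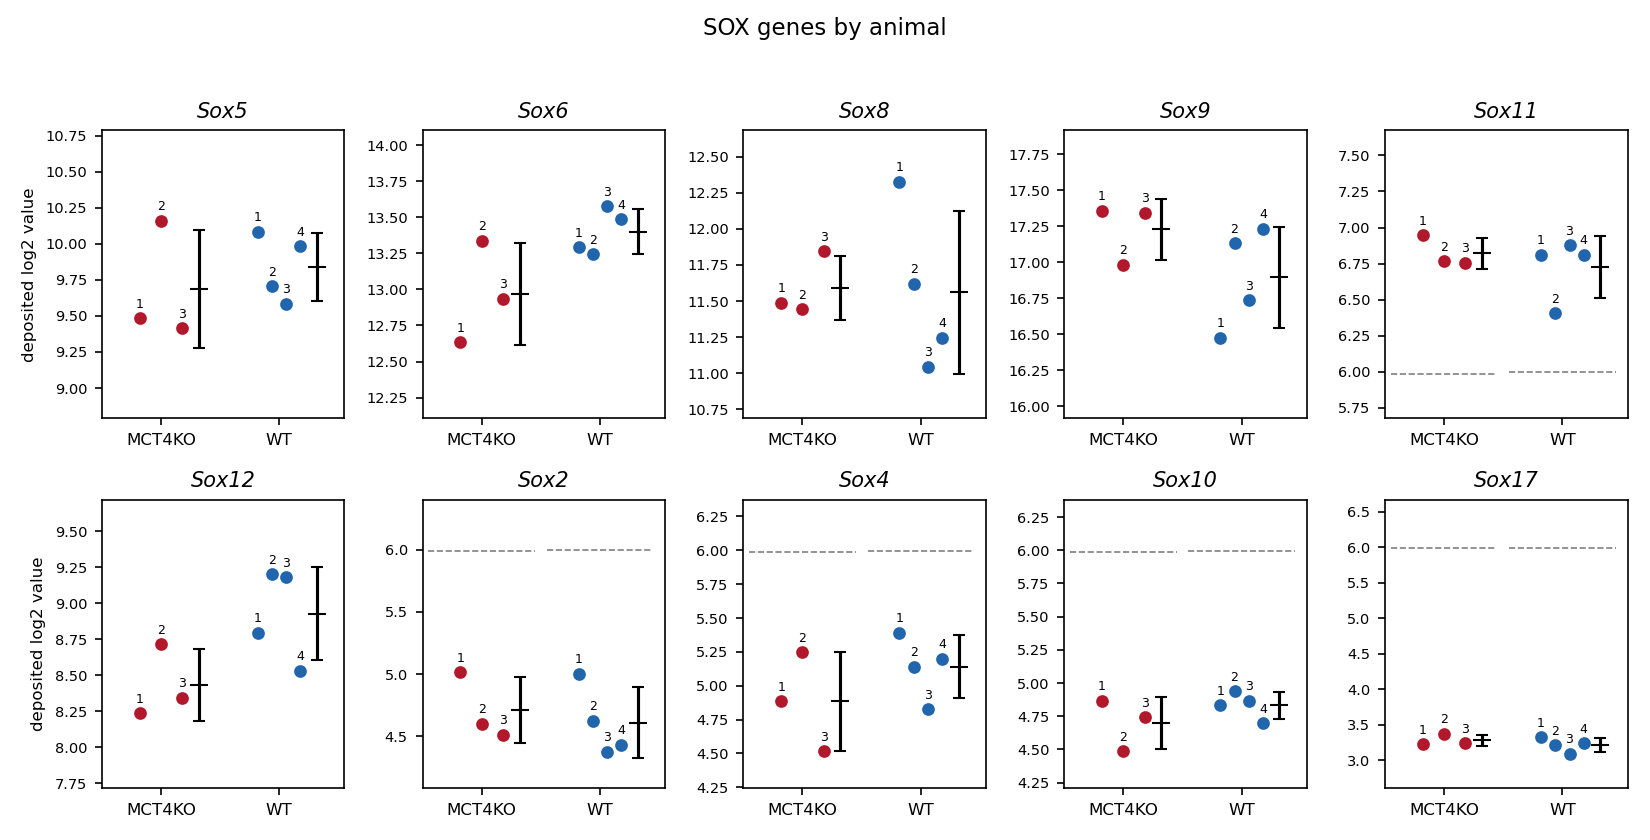
Deposited log2 values of the 10 SOX genes in MCT4KO (red, left, n = 3) and WT (blue, right, n = 4) animals, with each animal's number, the group mean ± SD as black bars, and dashed lines for the mean control median of each group's arrays. The panels of Sox5, Sox6, Sox8, Sox9, Sox11 and Sox12 each span 2 log2 units, those of the other 4 genes reach up to the dashed line, and the groups overlap in all 10 panels.

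Sox9, the group E factor that drives cartilage matrix genes, read 17.36, 16.98 and 17.34 in MCT4KO animals 1 to 3, against 16.47, 17.13, 16.74 and 17.23 in WT animals 1 to 4. The groups overlapped, with WT 1 the lowest animal and MCT4KO 1 the highest. The mean was 17.23 ± 0.21 in MCT4KO (SD, n = 3) and 16.89 ± 0.35 in WT (SD, n = 4), a log2 change of 0.33 ± 0.20 (SE; adjusted p = 0.52, limma). The 95% interval of this difference ran from -0.12 to 0.79, so a fall in Sox9 of more than 0.12 on the log2 scale lies outside it. The change was positive under each of the 16 alternative settings tried, from 0.14 to 0.46, and lowest when the animals with Y-linked genes at background were left out. At that lowest value the SE was 0.21, so the bound on a fall depends on the animals used. These values lie below the highest feature on each array, which read 19.31 to 19.41. Whether differences are compressed at the level of Sox9 was not tested.

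Sox8, a group E relative of SOX9 with overlapping roles in several tissues, read 11.49, 11.44 and 11.85 in MCT4KO animals, against 12.33, 11.62, 11.04 and 11.25 in WT animals. The MCT4KO values fell inside the WT range, which covered 1.28 log2 units and was set at the top by WT 1. The log2 change was 0.033 ± 0.28 (SE; adjusted p = 0.97, limma), with a 95% interval from -0.59 to 0.65. Sox8 was the member with the widest spread in WT.

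Sox10, the group E factor of Schwann cells and melanocytes, read 4.87, 4.49 and 4.74 in MCT4KO animals and 4.83, 4.94, 4.87 and 4.70 in WT animals. Every value lay below the control median, between percentiles 19.8 and 28.2 of the negative controls. Of 10 melanocyte markers measured, several of them under SOX10 control, 1 fell and 0 rose over all genes tested, beside 0.472% lower and 0.118% higher of all genes. A change above 0 was seen for 8 and below 0 for 2, and the median log2 change was 0.14. The genes below 0 were Mlana and Mitf. Mlana, a melanosomal protein, read 6.74, 7.10 and 6.92 in MCT4KO animals, against 8.93, 8.43, 9.01 and 9.19 in WT animals, and fell by 1.97 ± 0.19 on the log2 scale (SE; adjusted p = 0.0073, limma), a call lost without WT 1 and MCT4KO 3 together (adjusted p = 0.059 in limma). Without WT 1 and WT 2, the animals highest in neutrophil markers, the change in Mlana was -2.18 (adjusted p = 0.012 in limma). This setting does not remove the marker difference. The list means of WT 3 and WT 4 were 6.19 and 6.46, against at most 5.91 in MCT4KO animals. A part of marrow cells in the change was not tested. Mitf, the master regulator of melanocytes that also has roles in other cells, had a log2 change of -1.03 ± 0.21 (SE; adjusted p = 0.075, limma), with every MCT4KO animal below every WT animal. Dct, Tyr and Tyrp1, the pigment enzymes, lay at background in both groups, and of the 10 melanocyte markers 7 did so. Tyr had an unadjusted p of 0.028 in limma, with each MCT4KO animal above each WT animal, at readings below background. Of 9 Schwann cell and glial markers measured, 0 passed the test and 4 were at background in both groups, with list means of 5.81 to 6.11 in MCT4KO animals and 6.05 to 6.44 in WT animals. S100b, which chondrocytes also express, and Egr2 were above background in every animal. Egr2 had a log2 change of -1.08 ± 0.60 (SE; adjusted p = 0.48, limma). Mbp had -0.74 ± 0.24 (SE; limma unadjusted p = 0.012, adjusted p = 0.26). Every MCT4KO animal lay below every WT animal for Mbp, which was at background in MCT4KO alone. Of the 9 changes, 4 were above 0 and 5 below, with a median of -0.042.

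Sox5 and Sox6 are the group D partners of SOX9 in cartilage. Sox6 read 12.63, 13.34 and 12.94 in MCT4KO animals 1 to 3, against 13.29, 13.25, 13.58 and 13.49 in WT animals 1 to 4. MCT4KO 1 and 3 lay below every WT animal and MCT4KO 2 lay within the WT range. The mean was 12.97 ± 0.35 in MCT4KO (SD, n = 3) and 13.40 ± 0.16 in WT (SD, n = 4), giving a log2 change of -0.43 ± 0.18 (SE; limma unadjusted p = 0.039, adjusted p = 0.37) with a 95% interval from -0.84 to -0.026. Its value depended on single animals, at -0.26 without MCT4KO 1 and -0.62 without MCT4KO 2, with adjusted p of 0.68 and 0.17 in limma.

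Sox5 read 9.49, 10.16 and 9.42 in MCT4KO animals, against 10.08, 9.70, 9.58 and 9.99 in WT animals. Here MCT4KO 2 was the highest of the 7 animals and the other MCT4KO animals were the lowest. The log2 change was -0.15 ± 0.21 (SE; adjusted p = 0.80, limma), with a 95% interval from -0.62 to 0.32. It was -0.39 without MCT4KO 2 and -0.016 without MCT4KO 3, with adjusted p of 0.40 and 0.98 in limma. Sox5, Sox6 and Sox12 were each highest in MCT4KO 2 among the knockouts, where Sox9 and Sox8 were lowest. Sox13, the remaining group D gene, read 8.05, 6.63 and 6.73 in MCT4KO animals and 7.55, 7.13, 6.41 and 7.15 in WT animals, with a log2 change of 0.075 ± 0.36 (SE; adjusted p = 0.95, limma). Its readings lay between percentiles 58.2 and 83.5 of the negative controls.

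Sox4, Sox11 and Sox12 form group C, whose members act in progenitor cells and in developing skeleton and nervous system. Sox12 read 8.24, 8.72 and 8.34 in MCT4KO animals 1 to 3, against 8.80, 9.20, 9.18 and 8.53 in WT animals 1 to 4. The groups overlapped through MCT4KO 2 and WT 4. The mean was 8.43 ± 0.25 in MCT4KO (SD, n = 3) and 8.93 ± 0.32 in WT (SD, n = 4), giving a log2 change of -0.50 ± 0.20 (SE; limma unadjusted p = 0.033, adjusted p = 0.35), or 0.709 of the WT level, with a 95% interval from -0.94 to -0.050. It had the smallest p of the 10 members and stayed negative under each of the 16 alternative settings, from -0.64 to -0.39, without passing the test in any, at adjusted p from 0.26 to 0.63.

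Sox11 read 6.95, 6.76 and 6.76 in MCT4KO animals, against 6.81, 6.40, 6.88 and 6.81 in WT animals. These readings are close to background, between percentiles 58.7 and 68.3 of the negative controls, and WT 2 was the low animal. The log2 change was 0.097 ± 0.15 (SE; adjusted p = 0.83, limma), with a 95% interval from -0.24 to 0.44. Sox4 lay below the control median throughout, at 4.89, 5.25 and 4.52 in MCT4KO animals and 5.39, 5.14, 4.83 and 5.20 in WT animals. Group C was thus read above background through Sox12 and Sox11 but not through Sox4.

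**Figure D2:**
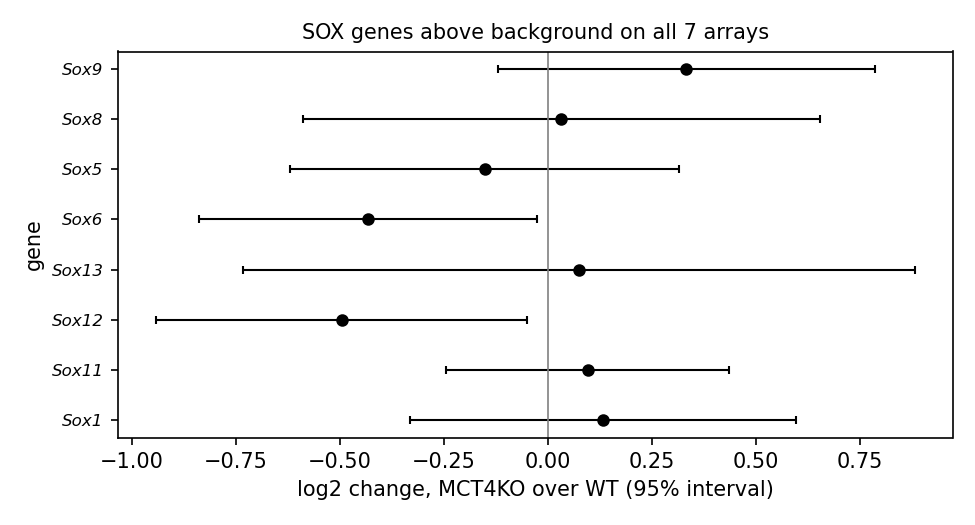
Log2 change, MCT4KO over WT, of the 8 SOX genes that read above background on all 7 arrays (Sox1 and Sox13 come from the rest of the family), with 95% intervals from limma over 3 MCT4KO and 4 WT animals. Sox12 and Sox6 have intervals that lie below 0 before adjustment over all genes, and the other 6 intervals cross 0.

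The sequence upstream of the start sites of Sox12 and Sox6 is given because these members had the smallest p. RefSeq promoter sequences (build GRCm38.p6) were available for 7 of the 10 members, in 12 windows of 250 bases that end at an annotated start, and the ACAAT core was searched on both strands, where it reads ATTGT on the other. Of all 32851 windows of this length, 27.7% held this core on either strand. A longer form with 1 more base, AACAAT, which contains the core, was found on either strand in 9.42%. Of the 12 SOX windows, 4 held ACAAT, 1 of Sox5 and 3 of the 6 of Sox6, and 1 held AACAAT. The cartilage target genes described below had 18 windows for 15 genes, of which 1 held ACAAT and 0 held AACAAT. The single window of Sox12 (chr2:152398047-152398296, minus strand, 74.4% G and C) held neither motif. The Sox6 window with AACAAT (chr7:115824711-115824960, minus strand, 41.6% G and C) held it 2 times, once on each strand, and capitals mark the ACAAT cores. A match is a description of the letters and not evidence of binding.
Sox12: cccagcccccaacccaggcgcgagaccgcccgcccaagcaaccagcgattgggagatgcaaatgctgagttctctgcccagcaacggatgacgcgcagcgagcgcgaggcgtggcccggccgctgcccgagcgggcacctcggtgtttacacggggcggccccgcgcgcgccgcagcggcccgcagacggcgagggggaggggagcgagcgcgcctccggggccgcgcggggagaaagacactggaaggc
Sox6: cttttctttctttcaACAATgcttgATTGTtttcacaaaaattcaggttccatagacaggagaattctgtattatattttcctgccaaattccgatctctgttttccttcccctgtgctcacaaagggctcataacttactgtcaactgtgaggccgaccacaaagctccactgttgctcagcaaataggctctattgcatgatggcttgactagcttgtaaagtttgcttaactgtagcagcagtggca

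Sox2, a group B1 factor of stem cells and neural progenitors, read 5.02, 4.60 and 4.51 in MCT4KO animals and 5.004, 4.63, 4.38 and 4.43 in WT animals, below the control median in each. Sox17, a group F factor of endoderm and arterial endothelium, read 3.22, 3.37 and 3.24 in MCT4KO animals and 3.32, 3.21, 3.09 and 3.24 in WT animals, between percentiles 1.44 and 3.39 of the negative controls. The endothelial marker list read low alongside it. Of its 13 measured genes, 10 were at background in both groups and 0 passed the test, with list means of 5.20 to 5.37 in MCT4KO animals and 5.04 to 5.27 in WT animals. Flt1, the VEGF receptor that other cells can also express, and Vwf, the clotting factor carrier, were the markers above background in every animal. Sox7 and Sox18, the other group F genes, were also at background in both groups.

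Of the 10 other family genes measured, 0 passed the test, 7 were at background in both groups, and 2, Sox1 and Sox13, read above it on all arrays. Sox1, a group B1 gene, read 8.95, 8.60 and 8.28 in MCT4KO animals and 8.55, 8.80, 8.08 and 8.48 in WT animals. Sox1ot, a non-coding transcript that spans Sox1, lay at background in both groups. Among 13 other HMG-box genes, 0 passed the test and the median log2 change was -0.14. Tox, an HMG-box factor best known in T cells, read 7.53, 6.82 and 6.56 in MCT4KO animals, against 8.42, 7.94, 8.33 and 8.08 in WT animals, with a log2 change of -1.22 ± 0.23 (SE; adjusted p = 0.054, limma) and groups that did not overlap. Tcf7l2, a Wnt effector, had a log2 change of -0.49 ± 0.19 (SE; adjusted p = 0.33, limma).

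Cartilage matrix genes known as targets of SOX9, SOX5 and SOX6 were described next. Of 20 measured, 1 fell and 0 rose over all genes tested (background 0.472% lower and 0.118% higher), and the median log2 change was 0.14. At an unadjusted p under 0.05 in limma, 3 were higher and 2 lower, beside 5.76% higher and 6.9% lower of all genes. The groups did not overlap for 6 of the 20, beside 12.0% of all genes. Of the 20, 13 read above background on all arrays and 4 were at background in both groups. Both counts include Matn4, higher in MCT4KO but at background in both groups. Col9a1, also without overlap, had means of 5.93 in MCT4KO and 6.02 in WT, close to background. Snorc, a chondrocyte transmembrane proteoglycan, read 9.96, 10.34 and 10.68 in MCT4KO animals, against 12.25, 11.86, 11.39 and 11.92 in WT animals. It fell by 1.53 ± 0.23 on the log2 scale (SE; adjusted p = 0.026, limma), and every MCT4KO animal lay below every WT animal. This call was lost without WT 2 (adjusted p = 0.069 in limma), without WT 4 (0.076) and without MCT4KO 1, 2 or 3 (0.089, 0.070 and 0.055), with log2 changes from -1.71 to -1.34. Without WT 1 and WT 2, the animals highest in neutrophil markers, its change was -1.33 (adjusted p = 0.16 in limma). That setting has fewer animals and leaves those markers higher in WT, so a part of marrow cells was not tested.

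Col2a1, the main collagen of cartilage and a direct SOX9 target, went the other way without passing the test. It read 10.08, 9.22 and 8.85 in MCT4KO animals, against 8.29, 8.10, 7.58 and 8.30 in WT animals, a log2 change of 1.32 ± 0.29 (SE; adjusted p = 0.088, limma) with groups that did not overlap. Col11a1, which co-assembles with it, had 0.76 ± 0.24 (SE; adjusted p = 0.25, limma), and Ucma, a secreted cartilage protein, had -1.01 ± 0.30 (SE; adjusted p = 0.21, limma). Acan, the core proteoglycan of disc and cartilage, read 18.35, 17.998 and 17.97 in MCT4KO animals and 17.98, 17.75, 17.88 and 18.05 in WT animals, a log2 change of 0.19 ± 0.15 (SE; adjusted p = 0.61, limma). Its link protein gene Hapln1 had -0.42 ± 0.21 (SE; adjusted p = 0.45, limma).

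Comp, Cnmd and Col10a1, picked after their values were seen, had wide ranges among the knockouts. Comp read 11.58, 8.04 and 6.35, Cnmd 9.45, 5.66 and 5.26, and Col10a1 12.11, 9.02 and 7.18 in MCT4KO animals 1 to 3. The ranges in WT animals were 7.20 to 9.36 for Comp, 6.77 to 8.55 for Cnmd and 7.02 to 8.50 for Col10a1. MCT4KO 1 was the highest of the 7 animals for all 3 genes, and it was also the highest for Col2a1, Col11a1 and Acan. Other genes of the target list went the other way. MCT4KO 1 was the lowest of the 7 animals for Snorc (9.96), Fgfr3 (12.61) and Wwp2 (11.86). The part of Comp, Cnmd and Col10a1 in the Col2a1 difference was not tested. Without MCT4KO 1 the Col2a1 log2 change was 0.97 (limma adjusted p = 0.19). Of 9 hypertrophic chondrocyte genes measured, 0 passed the test and 5 were at background in both groups.

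**Figure D3:**
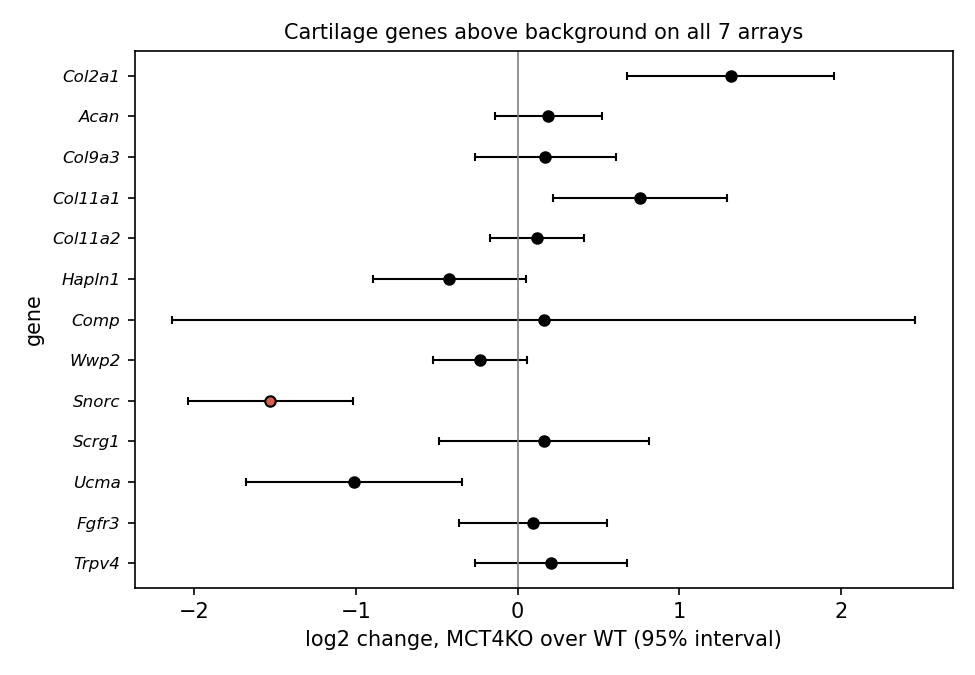
Log2 change, MCT4KO over WT, of the 13 cartilage genes of the target list that read above background on all 7 arrays, with 95% intervals from limma over 3 MCT4KO and 4 WT animals. Snorc (filled red) passed the adjusted threshold at -1.53, Col2a1 at 1.32 did not, and Comp has the widest interval.

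Of 21 SOX9 cofactors and upstream regulators measured, 0 passed the test and the median log2 change was -0.094. Prkaca, the protein kinase A subunit that phosphorylates SOX9, had -0.52 ± 0.16 (SE; adjusted p = 0.22, limma), and each MCT4KO animal lay below each WT animal. Barx2, a homeobox factor that cooperates with SOX proteins in cartilage, had 0.76 ± 0.23 (SE; adjusted p = 0.22, limma), with each MCT4KO animal above each WT animal. Creb1, a protein kinase A effector, had -0.45 ± 0.20 (SE; adjusted p = 0.38, limma), and Ep300, a coactivator of SOX9, -0.31 ± 0.14 (SE; adjusted p = 0.41, limma).

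Sox9 and Slc16a3 both lie on chromosome 11, with 182 protein-coding genes between them in the RefSeq annotation (GRCm38.p6). Of the 8 flanking genes measured, 1 fell and 0 rose over all genes tested, beside 0.472% lower and 0.118% higher of all genes, and the median log2 change was -0.20. Cdc42ep4, an effector of the GTPase CDC42 that lies on the Slc16a3 side of Sox9 with 6 protein-coding genes between, read 6.19, 6.74 and 6.62 in MCT4KO animals, against 8.11, 8.21, 7.51 and 7.79 in WT animals. It fell by 1.39 ± 0.20 on the log2 scale (SE; adjusted p = 0.025, limma) with groups that did not overlap. The call was lost without WT 1, 2 or 4 (limma adjusted p = 0.056, 0.065 and 0.071) and without MCT4KO 1 or 3 (0.084 and 0.078), with log2 changes from -1.44 to -1.23. Without WT 1 and WT 2 the change was -1.14 (adjusted p = 0.14 in limma). Slc39a11, the nearest coding neighbour of Sox9 on that side, had -0.45 ± 0.23 (SE; adjusted p = 0.45, limma), and Cog1, in the same stretch, -0.25 ± 0.13 (SE; adjusted p = 0.46, limma). The allele of these genes carried by each animal was not analysed here. Linkage to Slc16a3, any strain difference and loss of MCT4 therefore cannot be told apart.

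**Figure D4:**
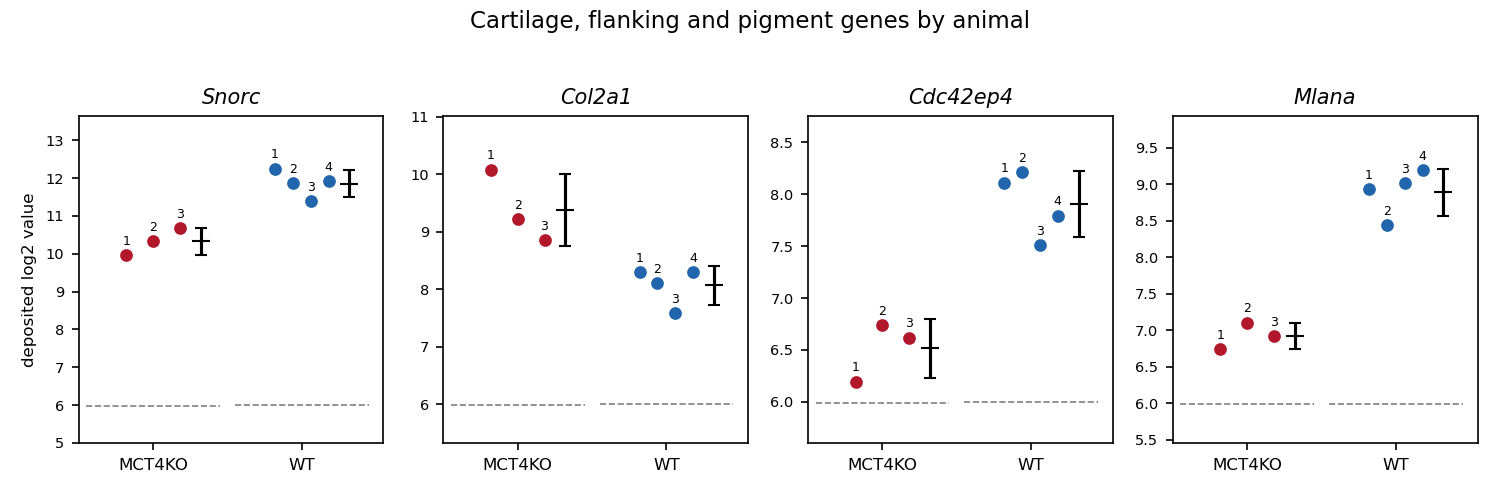
Deposited log2 values of Snorc, Col2a1, Cdc42ep4 and Mlana in MCT4KO (red, left, n = 3) and WT (blue, right, n = 4) animals, with each animal's number, group mean ± SD as black bars and dashed lines for the mean control median of each group's arrays. The groups do not overlap in any of the 4 panels, and Col2a1 is the gene that was higher in MCT4KO animals.

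Since no member passed the test, the genes closest in pattern were named for Sox12, as the root-mean-square difference over 7 arrays after each gene was centred on its mean. They were 1700007K13Rik (0.080), Fam214a (0.088) and Ppcs (0.092), the last of these an enzyme of coenzyme A synthesis. They are the closest of 19505 genes over only 7 arrays and are given as a description.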

How the data were processed

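RNA of nucleus pulposus from 7 mice was measured on Affymetrix arrays. Per the submitters' processing notes Affymetrix Expression Console 1.4.1 was used, and the authors deposited 1 value per feature and array. The sources used here do not give the background correction or normalization. No source states the log base. The values were taken as log2 as deposited, although the highest exceed the log2 of the largest reading that a scanner of this kind gives, so folds depend on that choice.

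Of 28846 features, 19572 carried 1 gene symbol, 0 several, and the rest are unnamed here. All 19572 matched a RefSeq table (GRCm38.p6) by gene identifier, used for names, chromosome and gene order. For the 55 genes with several features the one with the highest mean was kept, leaving 19505 genes. A gene counted as at background in a group if no array of the group exceeded its own negative control median. A bound on a fold was computed against those medians.

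MCT4KO was compared with WT over the 7 arrays in a single limma 3.58.1 model of all genes (lmFit, eBayes, R 4.3.3), without covariates. Residual degrees of freedom were 5 and prior ones 4.66. Two-sided p-values were adjusted by Benjamini-Hochberg over all genes, with a threshold of 0.05. Over all genes the SE of a change had a median of 0.167, and the number of arrays limits the precision. The procedure was tested on simulated data. There, 5.2% of genes given a log2 change of 0.5 were recovered, 79.65% at 1 and 99.6% at 2. Of the calls made there, 6.05% were false. The simulated noise was normal and independent between genes and animals, without a difference in sex or neutrophil markers. These figures therefore do not measure the error rate of the calls in the real arrays. The members and the 17 gene lists (170 measured genes) were chosen with earlier results of these data known. No list was tested as a set. Named were Slc16a3, each member, called list genes, up to 4 list genes with the smallest p, and genes closest in pattern to the member with the smallest p. Other marker and target genes, such as S100b, Flt1, Vwf and Acan, were named besides, after their values were seen. The motif search was also chosen after seeing the data.

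The settings varied were the normalization (quantile, or centring on array medians), dropping genes below the control median, raising values to it, averaging features, eBayes with trend and robust settings, a replicate block and leaving out each animal. Leaving out WT 1 with WT 2, or WT 1 with MCT4KO 3, was added after seeing the data. Same-numbered animals share only a number: the correlations of their deviations from group means were -0.13, 0.016 and 0.0499 for numbers 1 to 3.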

Additional observations from a re-analysis of the deposited data

Results flagged for a closer look

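WT groups of 4 animals were tested with Dixon's criterion for 112 named genes, and 11 had an animal far from the other 3, where chance flags about 1 in 20. Sox11 read 6.40 in WT 2, below the other WT animals. Shh read 9.65 in WT 1, above the others. The Y-linked genes Eif2s3y, Kdm5d and Uty read 3.53, 4.36 and 3.26 in WT 1, below the others. Cd24a (17.43), Esam (5.62) and Thbs4 (5.33) were low in WT 3. In WT 4, Dct (4.20) and Col27a1 (5.04) were low and Myh4 (5.36) was high. Esam, Thbs4, Dct, Col27a1 and Myh4 read near or below background in WT.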

How the results depend on the processing

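The count of changed SOX genes was 0 under all 16 alternatives, with a smallest adjusted p of 0.17 among members, reached by Sox6 without MCT4KO 2. Sox9, Sox6 and Sox12 kept their sign under all 16. Sox8, with a change near 0, turned to -0.071 with the replicate block, and to -0.14, -0.071 and -0.094 without WT 3, WT 4 and MCT4KO 3, within a range of -0.14 to 0.29 over single animals left out, and it was 0.45 without WT 1 and WT 2. Sox11 turned to -0.010 without WT 2 (range -0.010 to 0.15) and -0.021 without WT 1 and WT 2, and Sox5 to 0.065 without WT 1 and MCT4KO 3. The members' median change ran from -0.13 to 0.014 when single animals were left out, and was 0.091 without WT 1 and MCT4KO 3.

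The count of all changed genes, 115, was 26 with values raised to the control medians, 6 with the replicate block, 16 without WT 1 and WT 2, 17 without WT 1 and MCT4KO 3, and 15 to 64 without single animals. Of the 170 genes in the lists 3 were called, Snorc, Cdc42ep4 and Mlana, beside 0.59% of all genes. This count was 1 with raised values, 0 with the replicate block, 1 without WT 1 and WT 2, 0 without WT 1 and MCT4KO 3, and 1 to 3 without single animals. All 3 genes kept their sign. Under the block the adjusted p was 0.14 for Snorc, 0.086 for Cdc42ep4 and 0.055 for Mlana. The block uses numbers that do not pair the animals and leaves WT 4 without a partner. Slc16a3 stayed past the threshold throughout. The causes of these shifts were not tested.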

Other observations

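Of 8 osteoblast and osteocyte markers 0 passed the test and 6 were at background in both groups. Ibsp, a bone sialoprotein, was above background in every animal and had a log2 change of -1.94 ± 0.49 (SE; adjusted p = 0.14, limma). Of 10 skeletal muscle markers 0 passed, with list means of 5.50 to 6.23 in MCT4KO animals and 5.49 to 6.31 in WT animals. Of 9 annulus fibrosus and tendon markers 0 passed, with list means of 8.61 to 8.89 in MCT4KO animals and 8.52 to 8.84 in WT animals. Of 3 erythroid markers 0 passed, with list means of 6.13 to 6.17 in MCT4KO animals and 6.10 to 7.47 in WT animals. Of 7 epidermal markers 0 passed and 6 were at background in both groups, with all 7 changes above 0 and a median of 0.28. Of 9 neutrophil and marrow markers 0 passed, and all 9 changes were below 0 with a median of -1.79. An unadjusted p under 0.05 in limma was reached by 4, all lower, beside 6.9% of all genes lower. The groups did not overlap for 4, beside 12.0% of all genes. Of these markers 5 were at background in MCT4KO alone, and S100a8 read 5.56, 4.31 and 5.57 in MCT4KO animals, against 10.41, 13.04, 7.71 and 7.86 in WT animals (adjusted p = 0.12 in limma). Of 10 nucleus pulposus markers and 3 Y-linked genes 0 passed.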
